A study of Drosophila melanogaster with 3 samples.

Results

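Insulator and architectural proteins organise chromatin in the fly. Some bind DNA directly at boundaries and promoters, such as CTCF, su(Hw), BEAF-32, M1BP, Clamp, Dref and the GAGA factor encoded by Trl, and others, such as Cp190, mod(mdg4) and Chro, join them as cofactors. They are known for blocking enhancers, for marking the borders of contact domains and for occupying the promoters of constitutively active genes. The 10 genes described here, Chro, Cp190, Dref, Trl, BEAF-32, CTCF, su(Hw), mod(mdg4), Clamp and M1BP, were taken by symbol out of the 18277 genes of the annotation used, of which 13968 are protein-coding, and all 10 matched. The question asked of each was where binding of another protein, that of CG12219, lay at the gene's own start sites and inside it.

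The data are peak lists from chromatin immunoprecipitation with sequencing (ChIP-seq) on whole embryos of Drosophila melanogaster, of pooled sex, aged 0 to 18 h. There was 1 group of 3 biological replicates, from a transgenic line in which CG12219 carries GFP at its C-terminus, with no second condition and no untagged sample used here. One label describes the samples as input controls, whereas the assay, antibody and peak-list labels describe immunoprecipitations, and the samples were taken as immunoprecipitations. Whole embryos of mixed age hold many cell types, so a peak does not say in which cells it arose. The authors' list after the irreproducible discovery rate (IDR) step, which compares how replicates rank peaks, held 4187 peaks. The pooled list and each replicate list held 30000 calls, background included. Sorted by signal, the pooled calls begin with exactly these 4187, so a listed peak need not rank alike in every replicate. Peaks were ranked by the deposited signal within each list, rank 1 being the highest, and the depth of the libraries is unknown. Coordinates are dm6, and a negative offset means upstream of a transcription start site (TSS).

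Of the 10 genes, 7 held or neighboured an IDR summit, 13 summits in all. Chro had the highest at rank 13, followed by Trl at rank 25, Cp190 at 146, Dref at 516, mod(mdg4) at 668, M1BP at 1943 and BEAF-32 at 2758. CTCF, su(Hw) and Clamp had none. A summit lay within 500 bp of a TSS of 6 members, Chro, Cp190, Dref, Trl, BEAF-32 and M1BP, against 14.3% of protein-coding genes. By the nearest TSS at any distance the count was 4, Chro, Trl, BEAF-32 and mod(mdg4), against 17.3% of protein-coding genes. An IDR summit lay inside 4 members, Chro, Trl, BEAF-32 and mod(mdg4), against 11.9% of protein-coding genes. The members were named with earlier results of these data known, so these counts are given without a test. Nearest to the limit of 500 bp were the summit at M1BP, 319 bp upstream of its TSS, on the inside, and 1 inside Trl, at 596 bp from a TSS, on the outside.

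**Figure D1:**
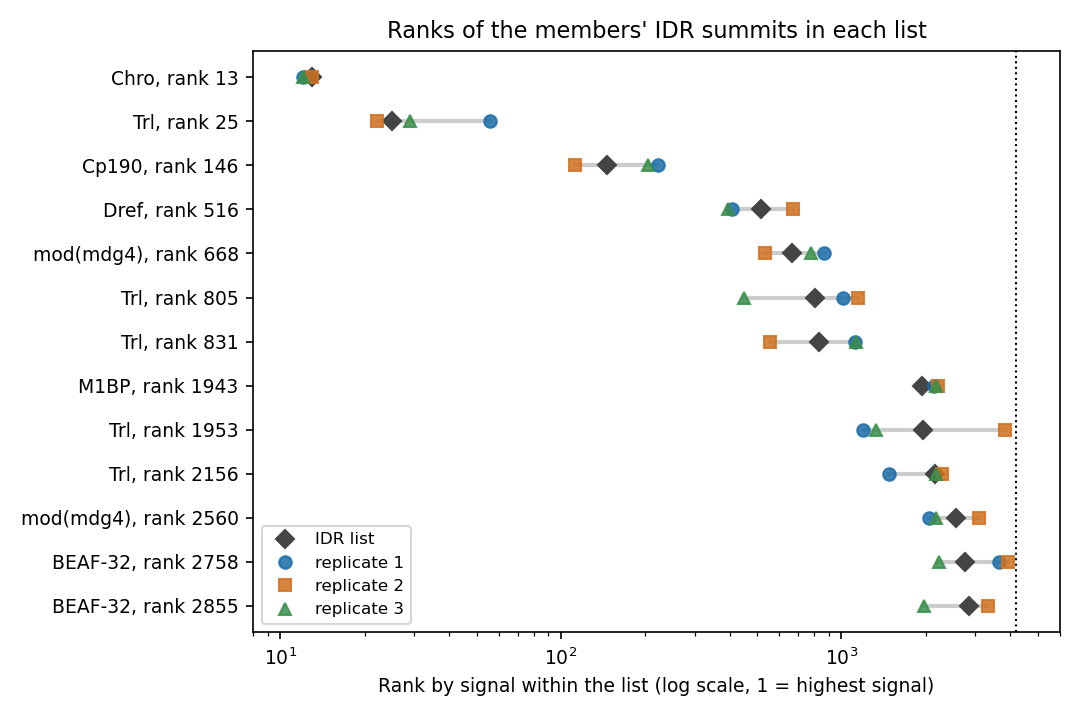
Ranks of the 13 IDR summits at the members in the IDR list (diamonds) and in the lists of replicates 1, 2 and 3 (circles, squares and triangles), on a log axis on which 1 is the highest signal. The dotted line marks rank 4187, the number of IDR peaks. The Chro summit ranked 12 or 13 in every list, and the lower summit of BEAF-32 at rank 2855 has no point for replicate 1.

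The replicates placed most of these summits alike. Of the 13, 12 were among the 4187 highest-signal calls of all 3 replicates, against 60.0% of all IDR peaks, and 9 belonged to the 2093 IDR peaks of higher signal. The values for all IDR peaks in this paragraph were not matched to the members' ranks. The worst replicate rank was a median of 1.73 times the best for the members' summits with a call in all 3 lists, and 2.09 times for all IDR peaks. Over 38 pairs of an IDR summit and its replicate call, the summits lay a median of 10 bp apart, and at most 103 bp, against a median of 16 bp for all IDR peaks. Replicate 2 gave the lowest rank to 8 of the 12 member summits found in all 3 lists and the highest to the other 4, whereas over all 4086 such IDR peaks replicate 2 gave the lowest in 30.6% and the highest in 41.0%. Whether this order has a technical source was not tested. In order of their strongest summits, the replicate ranks of Chro, Trl, Cp190 and Dref did not overlap, those of Dref and mod(mdg4) did, and M1BP followed with a gap. The stronger BEAF-32 summit ranked below M1BP in every replicate, whereas the weaker one ranked below it in replicate 2 and above it in replicate 3.

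Chro encodes Chromator, a chromodomain protein of interbands and domain borders that works with the zinc finger protein Z4. The gene (FBgn0044324) spans chr3L:22873702-22878984 on the minus strand. Its summit (chr3L:22878715-22879077) had a signal of 2888.58 in the authors' units and ranked 12, 13 and 12 in replicates 1, 2 and 3 (12.3 ± 0.577, SD, n = 3). It lay inside the annotated 5' UTR, 103 bp downstream of the most upstream TSS, where 1 transcript starts, and 113 bp upstream of the TSS at which 3 transcripts start. The head-to-head gene Ssl1, which encodes a subunit of the general transcription factor TFIIH, starts 105 bp from the first Chro TSS, and the summit lay 208 bp upstream of the Ssl1 TSS. Chro was the nearer gene, and both promoters lie within 500 bp of the summit. The IDR peaks next to it in rank were nearest to CG11309 at rank 12 and CG9147 at rank 14.

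Cp190 encodes a BTB and zinc finger protein that several DNA-binding insulator proteins recruit. The gene (FBgn0000283) spans chr3R:15270432-15275241 on the minus strand. Its summit (chr3R:15275228-15275552) ranked 146 after IDR, and replicates 1, 2 and 3 placed it at 221, 112 and 205 (179 ± 58.9, SD, n = 3), highest in replicate 2. It fell between genes, 152 bp upstream of the Cp190 TSS and 129 bp upstream of that of CG4338, which is transcribed away from it. The 2 start sites are 281 bp apart, so the summit sat close to the middle, with CG4338 slightly nearer. By rank its neighbours were the peaks near Dok at 145 and fok at 147.

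Dref encodes the transcription factor of the DNA replication-related element, found in promoters of genes for replication and growth. The gene (FBgn0015664) spans chr2L:9964147-9967229 on the minus strand. Its summit (chr2L:9967205-9967429) ranked 516, and 407, 672 and 394 in replicates 1, 2 and 3 (491 ± 157, SD, n = 3). The promoter is shared with RpL13, a ribosomal protein gene of the large subunit, whose TSS is 84 bp away. The summit lay 13 bp upstream of the RpL13 TSS and 71 bp upstream of that of Dref. With RpL13 so near, the peak cannot be given to Dref alone. The peaks just above and below in rank were near pAbp, the poly(A)-binding protein gene, at 515, and near yin at 517.

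M1BP encodes the zinc finger protein that binds the core promoter element called motif 1. The gene (FBgn0037621) spans chr3R:8729790-8731698 on the minus strand. Its summit (chr3R:8731822-8732211) ranked 1943, and 2140, 2213 and 2181 in replicates 1, 2 and 3 (2180 ± 36.6, SD, n = 3), so the replicates lay close together. It was 319 bp upstream of the M1BP TSS and 74 bp upstream of that of the head-to-head gene CG8202, with 393 bp between the start sites. CG8202 is therefore the nearer gene, and M1BP counted only through the width of the window.

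**Figure D2:**
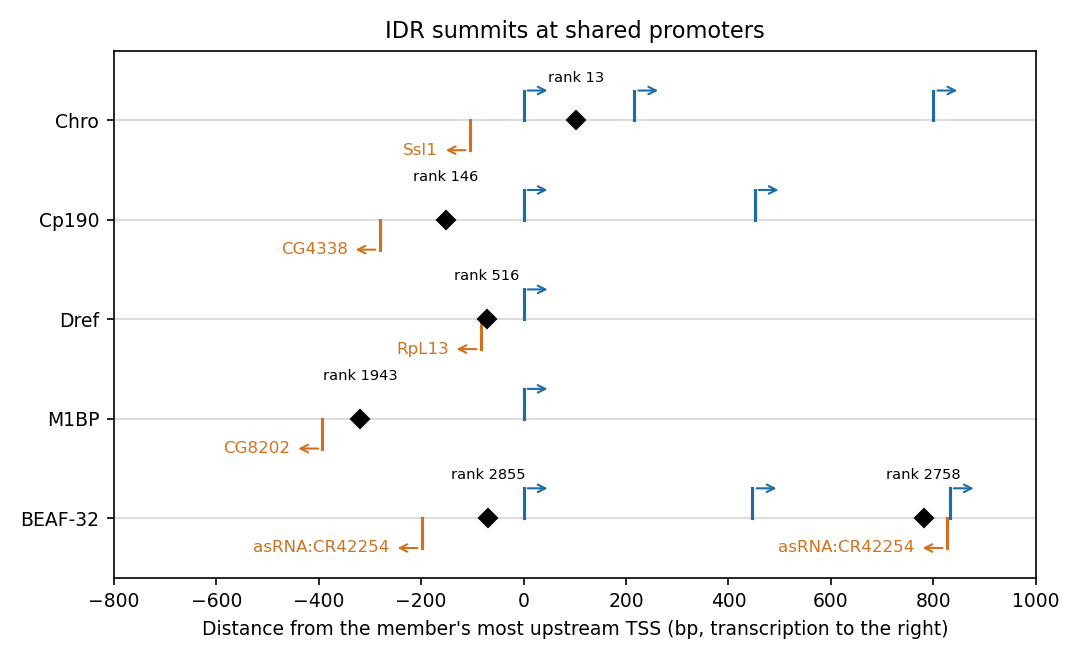
Summits (diamonds, with IDR rank) at the promoters of Chro, Cp190, Dref, M1BP and BEAF-32, drawn to scale against the distance in bp from the member's most upstream TSS. Blue arrows are TSS of the member and orange arrows those of the neighbouring gene on the other strand. At Cp190, Dref and M1BP the summit lies between the divergent start sites, and at Chro it lies inside the gene.

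The sequence at these shared promoters is shown because 1 summit there stands for 2 genes. Each run is the plus strand of the RefSeq genome (dm6 coordinates), within 100 bp of the summit and ended at the nearest annotated UTR, or 30 bases where the summit itself is in a UTR. Capitals mark matches to CGATA, the core bound by BEAF-32, on either strand, and a run wholly in lower case holds no match. The runs cover chr3L:22878867-22878896 for Chro, chr3R:15275293-15275493 for Cp190, chr2L:9967230-9967312 for Dref, which is the whole stretch between both start sites, and chr3R:8731917-8732090 for M1BP. The summit is base 15, 101, 71 and 101 of these runs in turn.
Chro and Ssl1: atattactgggagtgtattgcctgtCGATA
Cp190 and CG4338: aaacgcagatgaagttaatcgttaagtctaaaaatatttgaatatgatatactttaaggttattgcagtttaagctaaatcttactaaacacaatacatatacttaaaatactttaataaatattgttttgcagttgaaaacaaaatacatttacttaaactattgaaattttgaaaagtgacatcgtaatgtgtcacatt
Dref and RpL13: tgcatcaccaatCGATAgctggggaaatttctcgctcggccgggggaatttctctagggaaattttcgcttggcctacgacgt
M1BP and CG8202: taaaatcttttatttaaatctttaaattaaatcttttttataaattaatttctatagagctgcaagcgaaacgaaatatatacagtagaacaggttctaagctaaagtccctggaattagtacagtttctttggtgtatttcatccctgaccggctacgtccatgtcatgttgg

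The Cp190 run was the richest in A and T, with 76.6%, and the Dref run the poorest, with 48.2%. In the Chro run the CGATA match centres 13 bp from the summit, and in the Dref run it lies 56 bp from the summit, on the Dref side.

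Sharing of promoters was frequent among the members' start-site summits. Of the 8 summits within 500 bp of a member's TSS, 7 also had a TSS of another gene within that distance, against 31.7% of all IDR summits at a TSS. With protein-coding genes as the only neighbours it was 5, against 28.3% of IDR summits at protein-coding start sites. Both shares count each summit once, whereas the members' summits were reached through genes. A summit at start sites of 2 genes can be reached through either, so these shares are not matched to the members' counts. The 7 include both BEAF-32 summits, whose neighbour is the same antisense gene. Both the 7 and the 5 include the Trl summit of rank 1953, where CG42507 starts at the same TSS as Trl. In 4 of the 8, at Cp190, Dref, M1BP and 1 of the BEAF-32 summits, the other gene's TSS was nearer. Counted by gene, 5 members have a head-to-head protein-coding gene whose TSS lies at most 500 bp upstream, and 4 of them, Chro, Cp190, Dref and M1BP, had an IDR summit at a TSS. Among all 3815 protein-coding genes of that arrangement 24.3% did. The fifth is su(Hw), whose partner Polr2I, an RNA polymerase II subunit gene, starts 500 bp away. Of the other 5 members, Trl and BEAF-32 had an IDR summit at a TSS, against 10.5% of the 10153 protein-coding genes without such a partner. Seen the other way, 4 of the 6 members with an IDR summit at a TSS have such a partner. Of all 1996 protein-coding genes with an IDR summit at a TSS, 926 have one.

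Trl, which encodes GAGA factor, a protein that binds GA repeats and helps keep promoters free of nucleosomes, held 5 IDR summits along its 13.1 kb (FBgn0013263, chr3L:14747929-14761049, minus strand). Inside 0.666% of protein-coding genes there were 5 or more, and inside 0.704% of the 1136 protein-coding genes whose length is within 1.5 times that of Trl. In the further list of genes described below, psq, whose protein also binds GA repeats, held 5 as well. All 5 calls that the pooled list holds there are IDR peaks. The summits stretched over 4313 bp, with 942 to 1290 bp between neighbours, and none lay in the remaining part of the gene towards its 3' end.

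The strongest summit of Trl (chr3L:14759325-14759714, rank 25) was intronic and far from any start site. It ranked 56, 22 and 29 in replicates 1, 2 and 3 (35.7 ± 18.0, SD, n = 3), lowest in replicate 1. It lay 1538 bp downstream of the most upstream TSS, where 1 transcript starts, and 1549 bp upstream of the TSS of 7 further transcripts. No TSS of any gene was within 500 bp of it, and the nearest TSS was that of Trl itself. Its neighbours in rank were the peaks near chif at 24 and near CG5611 at 26.

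The other 4 summits of Trl ranked 805 to 2156. That of rank 805 (chr3L:14757107-14757295), in a 5' UTR 121 bp downstream of a TSS, ranked 1009, 1144 and 448 in replicates 1, 2 and 3, highest in replicate 3. That of rank 831 (chr3L:14756124-14756292), in an intron 1196 bp downstream of the same TSS, ranked 1120, 555 and 1131, highest in replicate 2. These 2 lie 1075 bp apart, and their order differed between the replicates. The summit of rank 1953 (chr3L:14758026-14758415) lay 259 bp upstream of the TSS of 7 Trl transcripts, which is also the TSS of the nested gene CG42507. It ranked 1193, 3829 and 1323, with 3.21 times between best and worst, the widest spread among the 12 summits that have a call in all 3 lists. The summit of rank 2156 (chr3L:14760258-14760647), at 596 bp in the first intron, ranked 1479, 2283 and 2175.

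The runs below show the strongest Trl summit and the one at the start site of most transcripts, as the plus strand within 100 bp of each summit (chr3L:14759411-14759611 and chr3L:14758121-14758321), with the summit at base 101. Capitals mark GAGAG, the GA repeat core that GAGA factor and CLAMP recognise.
Trl intron, rank 25: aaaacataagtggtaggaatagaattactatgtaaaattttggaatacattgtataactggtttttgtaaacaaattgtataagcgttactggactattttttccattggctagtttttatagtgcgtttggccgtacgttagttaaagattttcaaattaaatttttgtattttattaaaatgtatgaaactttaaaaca
Trl start site, rank 1953: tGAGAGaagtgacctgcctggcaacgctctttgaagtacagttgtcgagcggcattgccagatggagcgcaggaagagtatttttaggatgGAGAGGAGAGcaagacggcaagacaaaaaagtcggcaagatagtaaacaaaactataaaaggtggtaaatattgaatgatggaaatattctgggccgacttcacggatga

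The run at rank 25 held 74.6% A+T and no GAGAG. The run at rank 1953 held 55.2% A+T and 3 GAGAG matches, of which 2 lay 7 and 2 bp from the summit. Whether GAGA factor occupies them in these embryos was not measured.

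**Figure D3:**
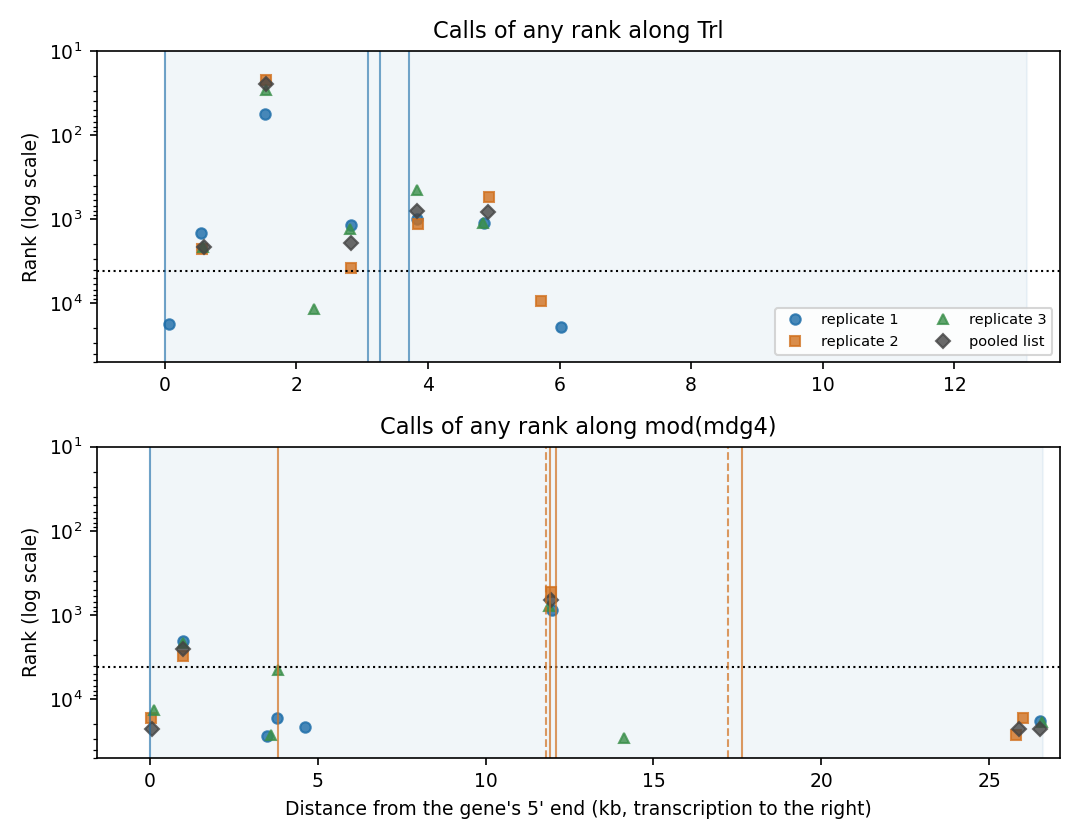
Calls of any rank along Trl and mod(mdg4), by distance in kb from the gene's 5' end and by rank on an inverted log axis, for the replicates and the pooled list. Blue lines are TSS of the gene, orange lines those of the pre-mod(mdg4) genes on the same strand (solid) or the other strand (dashed), and the dotted line marks rank 4187. Trl has 5 positions above the line in every list, and mod(mdg4) has 2.

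mod(mdg4) encodes a family of BTB proteins, partners of su(Hw) among them, whose common 5' part is joined by trans-splicing to alternative 3' parts made from separate transcripts of both strands. The gene (FBgn0002781) spans chr3R:21350846-21377401 on the minus strand. The annotation lists 23 such pre-mod(mdg4) genes inside it, 9 on the plus and 14 on the minus strand. The stronger of its 2 IDR summits (chr3R:21365301-21365518, rank 668) lay 11948 bp from the mod(mdg4) TSS, in the interior of the gene, and so did not count as a start-site summit of mod(mdg4). It ranked 868, 533 and 779 in replicates 1, 2 and 3 (727 ± 174, SD, n = 3). Start sites of 10 pre-mod(mdg4) genes lay within 500 bp of it, that of pre-mod(mdg4)-E at 35 bp, those of pre-mod(mdg4)-C and pre-mod(mdg4)-AB at -163 bp on the same strand, and a common one of 7 genes of the other strand at -156 bp. No other group of pre-mod(mdg4) start sites had an IDR summit within 500 bp. The nearest to one was a call of rank 4503 in replicate 3, at 3828 bp from the gene's 5' end, where pre-mod(mdg4)-N, pre-mod(mdg4)-O and pre-mod(mdg4)-AA start, with a call of rank 16990 beside it in replicate 1 and none in the pooled list.

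The second IDR summit of mod(mdg4) (chr3R:21376203-21376592, rank 2560) was in an intron, 1003 bp downstream of the TSS that all 22 mod(mdg4) transcripts share. It ranked 2052, 3093 and 2169 in replicates 1, 2 and 3 (2440 ± 570, SD, n = 3). At the TSS itself the pooled list held a call of rank 22444, at 64 bp, with calls of rank 16956 and 13365 in replicates 2 and 3 and none in replicate 1. At least 2 IDR summits were found inside 25.4% of the 701 protein-coding genes within 1.5 times its length of 26.6 kb, so the number inside mod(mdg4) is not unusual for its size.

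Both mod(mdg4) summits are shown as the plus strand, 30 bases at the first (chr3R:21365439-21365468, summit at base 15, in the 5' UTR of pre-mod(mdg4)-E) and 201 at the second (chr3R:21376298-21376498, summit at base 101), since they differ in composition. Capitals mark GAGAG on either strand.
mod(mdg4), pre-mod start sites, rank 668: ttggtattggtactaataaatacgtcatgc
mod(mdg4), intron, rank 2560: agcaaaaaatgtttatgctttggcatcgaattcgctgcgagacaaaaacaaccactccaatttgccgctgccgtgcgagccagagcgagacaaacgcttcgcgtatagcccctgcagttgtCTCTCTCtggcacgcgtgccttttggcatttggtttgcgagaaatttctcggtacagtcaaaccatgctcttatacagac

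Within 50 bp of the summit, the first held 68.3% A+T and the second 41.6%, the lowest of the 13. The second run carried 2 overlapping GAGAG matches.

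**Figure D4:**
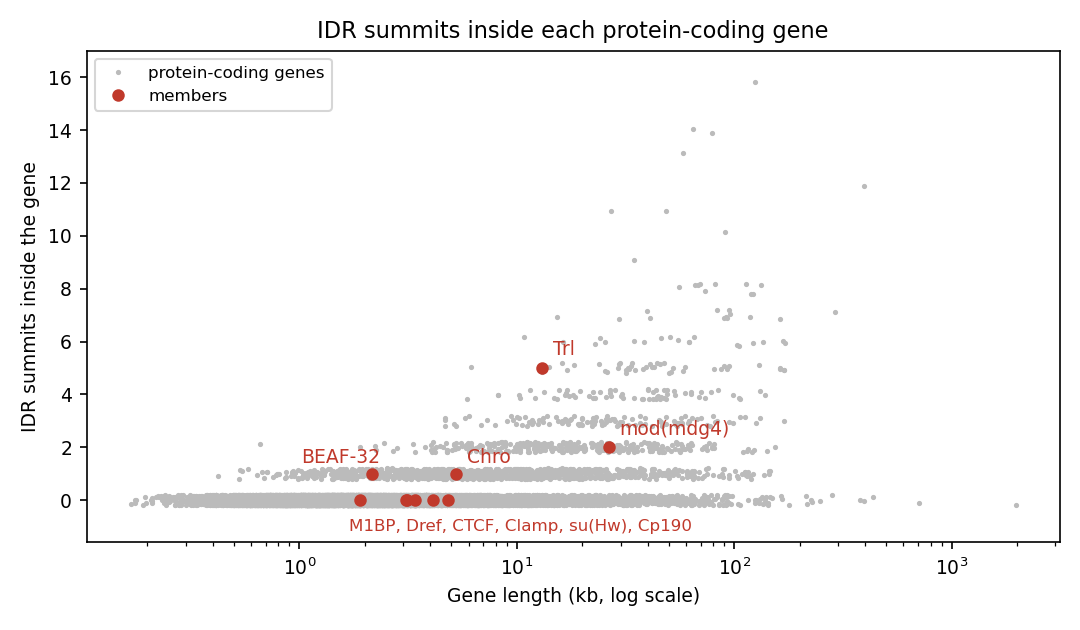
Number of IDR summits inside each protein-coding gene (grey, shifted slightly at random in height) against gene length in kb on a log axis, with the 10 members in red. Trl, with 5, stands above most genes of its length, mod(mdg4) has 2, Chro and BEAF-32 have 1 each, and the other 6 have 0.

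CTCF, su(Hw) and Clamp, which encode zinc finger proteins, had calls of low rank only. They lie at chr3L:7353578-7356713 (CTCF, FBgn0035769), chr3R:14304455-14308589 (su(Hw), FBgn0003567) and chr2L:22165720-22169143 (Clamp, FBgn0032979), all on the minus strand. At su(Hw), whose protein binds the gypsy insulator, the pooled list held a call at 130 bp from the TSS with rank 12157, and replicates 1, 2 and 3 held one at 161, 127 and 119 bp with ranks 8593, 16036 and 21988, in each list the strongest of the 2 to 4 calls within 500 bp. The su(Hw) call thus recurred at the same place in every replicate, below the 4187 calls that passed IDR. At CTCF, replicate 1 had calls of rank 10113 at -299 bp and of rank 23869 at 283 bp, and replicate 2 had one of rank 8509 at 144 bp, within 250 bp of the second. Neither replicate 3 nor the pooled list had a call there. Clamp, whose protein binds GA repeats and helps target dosage compensation to the X chromosome, had a single call of rank 17002 in replicate 3, at -44 bp. Of the 10 members, 8 had a pooled call of any rank within 500 bp of a TSS, against 44.8% of protein-coding genes. A call in each of the 3 replicate lists was found for 7 members, the 6 with an IDR summit there and su(Hw), against 29.9% of protein-coding genes.

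BEAF-32 encodes the boundary element-associated factor, whose isoforms differ in their DNA-binding part and start at separate promoters. The gene (FBgn0015602) spans chr2R:14770469-14772630 on the plus strand. It had 2 IDR summits, both of low rank, at the first and the last of its 3 start sites. The first (chr2R:14770205-14770594, rank 2855) lay 69 bp upstream of the most upstream TSS and ranked 3335 and 1966 in replicates 2 and 3, with no call within 250 bp in replicate 1. The other (chr2R:14771055-14771444, rank 2758) lay 51 bp upstream of the last TSS, in an annotated 5' UTR, and ranked 3647, 3911 and 2220 in replicates 1, 2 and 3 (3260 ± 910, SD, n = 3). The middle TSS, 447 bp from the first, was 334 bp from the summit of rank 2758. The antisense gene asRNA:CR42254 starts near both, at 45 bp from the summit of rank 2758 and -130 bp from that of rank 2855. Peak lists carry no strand, so BEAF-32 and its antisense gene cannot be told apart as owners of these summits.

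Base composition at the summits varied widely among the members. Within 50 bp of the summit A+T ran from 41.6% at the mod(mdg4) intron to 78.2% at Cp190, with a median of 65.3% over the 13 summits, against a median of 66.3% (quartiles 59.4 and 72.3%) over all IDR summits. Exact matches to 6 motifs were sought on both strands within 100 bp of each summit. CGATA was found at 3 of the 13, those of Chro, Dref and BEAF-32 (rank 2758), against 25.1% of all IDR summits and 39.3% of windows on the most upstream TSS of each protein-coding gene. GAGAG was found at 2, Trl (rank 1953) and mod(mdg4) (rank 2560), against 25.4% and 22.5%. TGCATA, the core of the su(Hw) motif, was found at the mod(mdg4) summit of rank 668, against 15.4% and 7.67%. TATCGATA, the DNA replication-related element, which contains CGATA, was found at none of the 13, against 1.67% and 7.83%. GGTCACACT, the motif 1 element of M1BP, was also found at none, against 0.979% and 5.28%, as was AGGNGGCGC of CTCF, against 0.717% and 0.394%. A match is a string of letters and does not show binding.

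Of 29 further genes for insulator, architectural, cohesin and condensin proteins, a list also chosen with earlier results of these data known, 7 (24.1%) had an IDR summit within 500 bp of a TSS, beside the 14.3% of protein-coding genes. Given only to the nearest gene within 500 bp, 3 of the 29 had one, against 10.7% of protein-coding genes. This share of the list was no higher than that over all genes. By the nearest TSS at any distance, 5 of the 29 had a summit, against 17.3% of protein-coding genes. The strongest of the 7 start-site summits was at SA1, a cohesin subunit gene, with rank 1277. It ranked 2021, 1117 and 1256 in replicates 1, 2 and 3. It lay at -53 bp from the SA1 TSS and -161 bp from that of Gas41, which encodes a chromatin-modifier subunit. Next were pita, a boundary zinc finger gene, at rank 1752, with the caspase gene Dcp-1 nearer to its summit, and lolal, a small BTB protein gene, at rank 1960. psq, whose protein binds GA repeats, followed at rank 2460, then fs(1)h, a BET bromodomain gene, at rank 2757, whose summit lay 27 bp from the TSS of the integrin gene mys.

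Cap-H2, a condensin II subunit gene, at rank 3221, and pzg, which encodes the Chromator partner Z4, at rank 3378, came last. Their summits lay nearer to another gene, that of Cap-H2 at -41 bp from the TSS of MED7, and that of pzg at 3 bp from the TSS of CG12974. At Cap-H2 the call ranked 11437 in replicate 1, against 3818 and 2646 in replicates 2 and 3. In all, 5 of these 7 summits were shared with the TSS of another gene. They too were reached through genes, so the 31.7% counted by summit above is not a matched share. Of the 12 genes on this list with a head-to-head partner 5 had an IDR summit at a TSS, against the 24.3% given above. Of the other 17 genes 2 had one, against the 10.5% given above. The 5 with a partner are not the 5 with a shared summit. They include lolal, whose summit of rank 1960 had no TSS of another gene within 500 bp. They leave out pita, which has no such partner.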

How the data were processed

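Peak lists from ChIP-seq on 3 biological replicates of 1 group of embryos were used. According to the file listing among the labels, each replicate list was called on that replicate's alignment against a control alignment, the pooled list on all 3 replicates, and the IDR list from these. For the aligner, the caller and the IDR cutoff, names and settings are not stated in the labels used here. Signal values were deposited by the authors with no normalization named, so they served for ranks inside 1 list at a time. Ties were broken by the −log10 q value that the authors deposited. The summit is the interval's start plus the offset the authors deposited. All 4187 IDR peaks occur in the pooled list as its 4187 highest-signal calls. Library depth is unknown, so no interval covers it.

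Start sites came from Ensembl release 115 (BDGP6.54) without transposable elements, on 7 chromosomes, with 23694 distinct start sites. Sequence came from the RefSeq genome, where 99.8% of the 30618 annotated start codons read ATG and no peak ran past a chromosome's end. A replicate call counted as the same peak when its summit lay within 250 bp, and the highest-ranked such call gave the rank. Named genes are all members, genes starting near their summits, genes of the further list with a start-site summit, and the neighbours in rank of the 4 strongest summits. Members and lists were chosen with earlier results of these data known, so counts stand beside the share of all protein-coding genes and no p-value is given. Summits in 1 gene are not independent. Alternatives were other TSS windows, the IDR peaks of higher signal, and those among the 4187 highest-signal calls of all 3 replicates. Others were nearest-gene assignment and leaving out each replicate. Assignment code was tested on simulated data. Python 3.11.15, numpy 2.4.6, pandas 2.3.3 and matplotlib 3.10.9 were used.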

Additional observations from a re-analysis of the deposited data

How the results depend on the processing

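The count of 6 members with an IDR summit at a TSS stood against 14.3% of protein-coding genes. It was 5 with a window of 250 bp, where M1BP dropped out, against 10.9%, and 6 with 1000 bp, against 17.3%. Among the 2093 peaks of higher signal it was 5, against 7.84%. Some IDR peaks were among the 4187 highest-signal calls of all 3 replicates. With these alone, matched within 250 or 100 bp, the count was 6 or 5, against 8.92 or 8.23%. Leaving out each replicate in turn kept the same 6 genes each time, against 12.7 to 13.1% of protein-coding genes. Given only to the nearest gene within 500 bp, start-site summits were left for 3 members, Chro, Trl and BEAF-32, against 10.7% of protein-coding genes, since those at Cp190, Dref and M1BP lie nearer to another gene. The 7 of 29 genes of the further list became 3 under that assignment, against the same 10.7%, and 3 among the peaks of higher signal, against 7.84%, so the excess over all genes was absent under the first and smaller under the second. With a replicate left out they were 7 to 9, against 12.7 to 13.1%. The 9 came without replicate 2 and exceed the 7 of the IDR list, so the summits used there were not a subset of that list. The 4 members holding a summit as the nearest gene (17.3% of protein-coding genes) became 2 among the peaks of higher signal, against 10%, and 3 to 4 with a replicate left out, against 15.8 to 16.0%. The Chro summit, at rank 13 in the pool, ranked 12 in replicates 1 and 3, and its mean rank was 12.0 to 12.5 with a replicate left out. Shared summits, 7 in the main count, numbered 5 with 250 bp, 8 with 1000 bp and 5 with protein-coding neighbours only. The number of start-site summits also changes with the window. No share over all IDR summits is given for 250 or 1000 bp, so these counts alone do not show how the sharing changed. No paired analysis was possible because the study has 1 group. Depth is unknown, so its effect on these counts was not measured.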
